A study of Mus musculus with 54 samples.

Results

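The microRNAs miR-143, miR-145, miR-199a, miR-199b, miR-214 and miR-125b were followed through small RNA libraries of the mouse small intestine. They were taken as a reading of connective tissue and muscle cells, because these microRNAs, miR-125b aside, are known mainly from such cells. The members are all entries of the small RNA table whose plain name (without a suffix) starts with 1 of these microRNAs, and 16 of the 635 plain-named entries, or 16 of 2602 in all, met that rule. The series is built around miR-375, a microRNA of the intestinal epithelium, and holds 54 samples. Its small RNA table gives 30 libraries of C57BL/6J mice in 8 groups. Dissected tissue gave the 4 crypt and the 4 villus libraries. Sorted cells gave 4 Cd24-Low libraries, from cells with little of the surface protein Cd24, and 2 Lgr5-High libraries, which the titles name after the stem cell receptor Lgr5 and the source label after Lgr4. The other sorted libraries used Sox9-EGFP, a green fluorescent reporter of the crypt gene Sox9. They comprise cells with low signal (Low) from 4 chow-fed, 4 germ-free and 4 conventionalized mice (raised without microbes, then colonized), and cells without signal (Negative) from the same 4 chow-fed mice. Low cells also gave 16 mRNA libraries, 4 each from chow-fed, high fat diet, conventionalized and germ-free mice. Beside these stand 2 APC mutant and 2 control samples, for which only a table of the authors' comparison was used. The columns of chow mouse 3, Low and Negative, name a high fat diet where the labels say chow. Neither ages nor the number of animals in a library could be taken from the labels. Nothing in the labels says that the Crypt, Villus, Cd24-Low and Lgr5-High libraries came from separate animals, so their p-values measure the spread between these samples, which may be technical.

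A microRNA is a short RNA cut from a hairpin-shaped precursor, and it lowers the output of messenger RNAs that match its seed, the bases near its 5′ end. The strand kept in the effector complex is called the guide, and its partner, usually degraded, the passenger. miR-143 and miR-145 are cut from a shared precursor transcript, Carmn in the mouse, and are known as the leading microRNAs of smooth muscle and fibroblasts. In the gut they have been studied in the mesenchyme, the connective tissue and muscle under the epithelium. miR-199a and miR-214 are cut from Dnm3os, a transcript of mesenchymal cells, while miR-125b is made in many cell types.

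RefSeq sequences (GRCm38.p6) were matched to 11 of the 16 entries. The sequences below are shown because they decide which entries can be told apart: the 3p strands of miR-199a and miR-199b are the same molecule, as are the 5p strands of the 2 miR-125b genes. Each is written 5′ to 3′ with its seed, bases 2 to 8, in capitals.
mmu-miR-199a-3p and mmu-miR-199b-3p: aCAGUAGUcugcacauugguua
mmu-miR-199a-5p: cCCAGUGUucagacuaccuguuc
mmu-miR-214-3p: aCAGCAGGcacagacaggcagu
mmu-miR-214-5p: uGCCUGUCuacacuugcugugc
mmu-miR-125b-5p: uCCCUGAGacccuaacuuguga
mmu-miR-125b-1-3p: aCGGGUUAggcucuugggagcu
mmu-miR-125b-2-3p: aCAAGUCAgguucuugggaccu

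No pair of these different strands shares a whole seed. The seeds of miR-199a-3p and miR-214-3p, CAGUAGU and CAGCAGG, have 5 of 7 bases in common. The passenger strands of the 2 miR-125b genes differ in sequence, so only these can tell the genes apart in a small RNA library. Entries for miR-143, miR-145 and miR-199b-5p were named only.

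The genes of the members lie in several places of GRCm38. Mir199a-2 (chr1:162217814-162217923, plus strand) and Mir214 (chr1:162223368-162223477, plus strand) are 5444 bp apart, both in exons of Dnm3os and on the opposite strand of an intron of Dnm3. Mir199b (chr2:32318460-32318569, plus strand) lies opposite an intron of Dnm1. Mir199a-1 (chr9:21496495-21496564, minus strand) lies opposite an intron of Dnm2. Mir125b-1 (chr9:41581926-41582002, plus strand) is within introns of the noncoding transcripts 3110039I08Rik and Gm49317 and overlaps an exon of Gm28119. Mir125b-2 (chr16:77646273-77646343, plus strand) is within an intron of Mir99ahg and overlaps an exon of the predicted transcript C130023A14Rik. The 2 hairpins of Dnm3os are printed with both mature strands in capitals, since both their 3p strands match members listed in every dissected library, although the strand of miR-199a can also come from the other genes.
Mir199a-2 hairpin: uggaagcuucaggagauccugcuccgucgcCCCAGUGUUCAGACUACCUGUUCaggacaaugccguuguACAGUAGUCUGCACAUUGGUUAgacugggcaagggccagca
Mir214 hairpin: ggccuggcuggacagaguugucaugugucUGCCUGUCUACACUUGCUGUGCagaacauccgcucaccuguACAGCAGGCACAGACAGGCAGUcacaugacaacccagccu

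Levels are given in RPMMM, the authors' name for a unit that scales every library to the same total. The smallest value above 0 in a library ranged from 0.33 to 5.92 RPMMM. A value of 0 therefore says only that a member lay under that limit, which was 0.33 to 0.78 RPMMM in the Cd24-Low libraries and 2.1 to 5.92 in the Low chow libraries. Total read numbers are not in the table, so counting error could not be computed. Differences are between group means of log2(RPMMM + 1), a scale that understates the change of low members, and were tested with limma, which called a difference at a Benjamini-Hochberg adjusted p under 0.05 over all features that averaged 50 RPMMM or more in the compared libraries. Of the 16 members, 6 reached that mean in at least 1 comparison and 10 in none. These 6 entries stand for 4 distinct mature strands: miR-143-3p, miR-143-5p, miR-145-5p and miR-199-3p, which is listed under 3 genes. In bulk samples such as these, fewer cells of a type and less RNA per cell cannot be told apart.

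miR-143-3p, the guide strand of miR-143, was the most abundant member in 29 of the 30 libraries. It was listed at 25329, 20737, 13400 and 23874 RPMMM in the 4 Crypt libraries and at 9346, 5700, 51364 and 14023 RPMMM in the 4 Villus libraries. That is 1.34% to 2.53% of a crypt library and 0.57% to 5.14% of a villus library. In sorted cells it was far lower. The Cd24-Low libraries gave 209, 413, 202 and 123 RPMMM, and the Negative libraries 111, 110, 118 and 141 RPMMM. Low cells of chow-fed mice gave 58.5, 50.01, 57.3 and 75.2 RPMMM. Conventionalized Low cells gave 138, 430, 141 and 345 RPMMM, and germ-free Low cells 58.2, 79.1, 30.02 and 74.8 RPMMM. The 2 Lgr5-High libraries gave 7.48 and 0 RPMMM. Every dissected library was above every sorted library, with 5700 RPMMM the lowest of the 8 and 430 RPMMM the highest of the 22.

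Ordered by mean, the groups ran from Crypt (20835 ± 5314 RPMMM, SD, n = 4) and Villus (20108 ± 21114, n = 4) to conventionalized Low (264 ± 147, n = 4), Cd24-Low (237 ± 124, n = 4) and Negative (120 ± 14.4, n = 4). Below these came germ-free Low (60.5 ± 22.3, n = 4), chow Low (60.3 ± 10.65, n = 4) and Lgr5-High (3.74 ± 5.29, n = 2). Crypt and Villus overlapped, as did conventionalized Low with Cd24-Low, Cd24-Low with Negative, and germ-free with chow Low. The ranges of the other neighbours, Villus and conventionalized Low, Negative and germ-free Low, and chow Low and Lgr5-High, did not overlap.

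**Figure D1:**
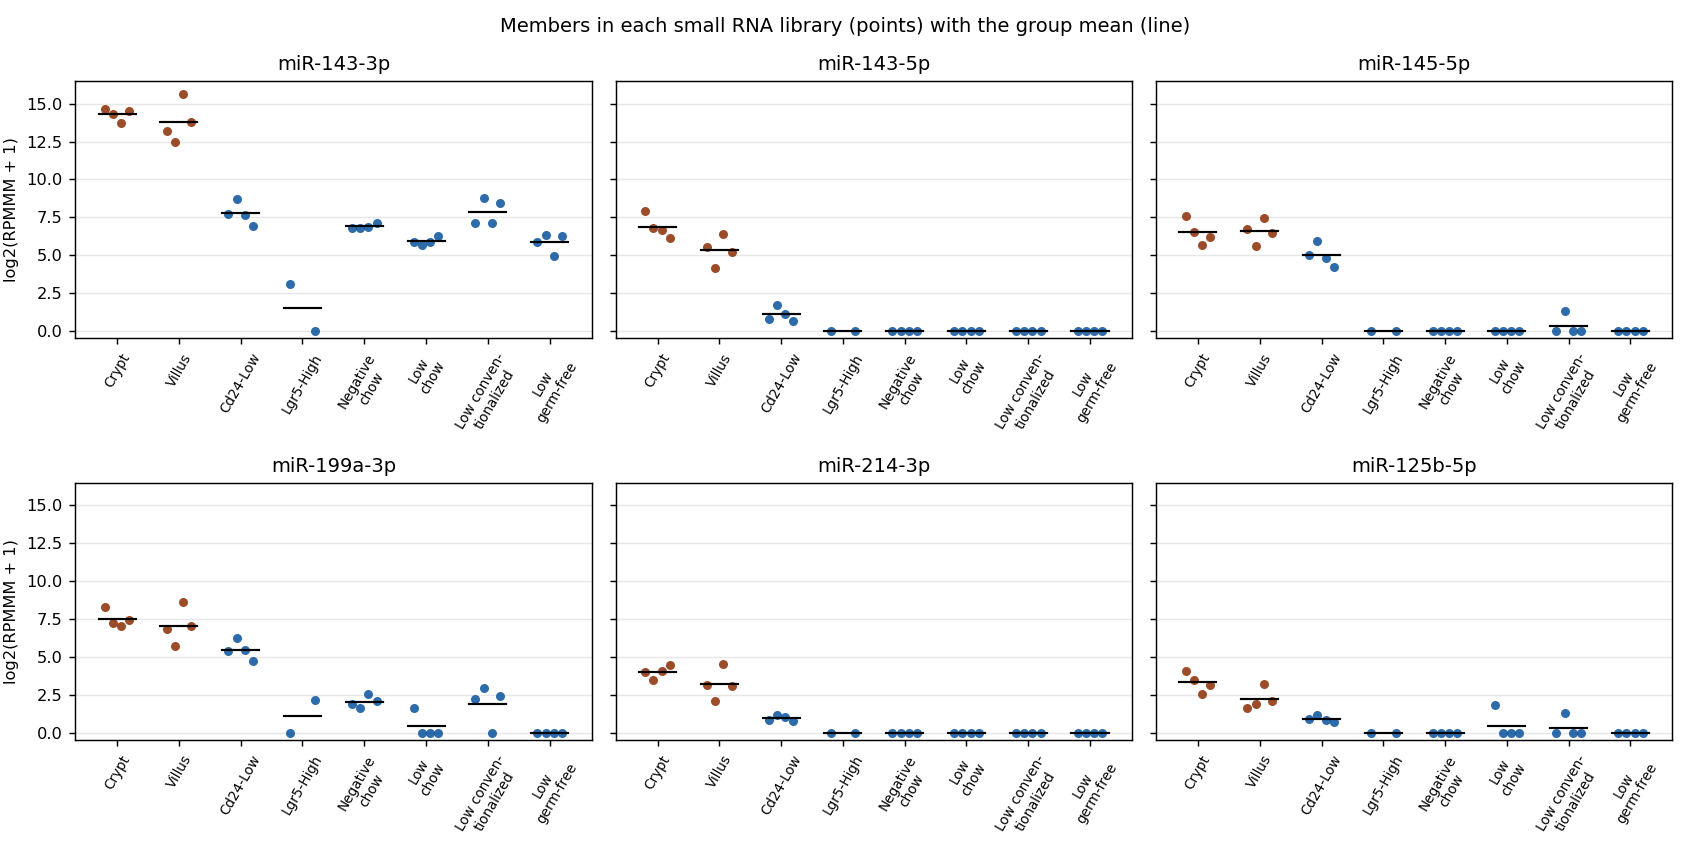
Level of 6 members in log2(RPMMM + 1) in each library (points) with the group mean (line), dissected tissue in brown and sorted cells in blue. miR-143-3p stood at 5700 RPMMM or more in the 8 dissected libraries, and miR-145-5p and miR-199a-3p were also seen in all 4 Cd24-Low libraries.

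miR-143-5p, the passenger strand, was seen in the dissected libraries and, at the limit of what is listed, in Cd24-Low. The Crypt libraries gave 238, 108, 100.2 and 70.1 RPMMM and the Villus libraries 44.8, 16.9, 84.95 and 35.9 RPMMM. In Cd24-Low it stood at 0.75, 2.32, 1.2 and 0.58 RPMMM, and it was listed at 0 in the other 18 sorted libraries, among them the conventionalized library with 430 RPMMM of miR-143-3p. It made up 0.293% to 0.939% of miR-143-3p in Crypt, 0.165% to 0.48% in Villus and 0.36% to 0.593% in Cd24-Low, so these ranges overlapped. The values of 0 do not show absence, since the smallest listed value was 0.84 to 5.19 RPMMM in conventionalized libraries. 

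miR-145-5p, the guide strand of the partner in the same precursor transcript, gave 196, 92.2, 49.6 and 74.2 RPMMM in Crypt and 106, 48.5, 175 and 87.1 RPMMM in Villus. The Cd24-Low libraries gave 30.9, 59.1, 27.7 and 17.6 RPMMM. Of the other 18 sorted libraries only conventionalized replicate 2 had it, at 1.49 RPMMM. Crypt and Villus overlapped over most of their ranges, and the highest Cd24-Low library lay above the lowest libraries of both. miR-145-3p, its passenger, was listed at 3.07 to 51.1 RPMMM in the 8 dissected libraries, at 1.68 to 6.13 RPMMM in Cd24-Low and at 0 in the other 18.

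The shared strand of miR-199a and miR-199b was listed as 3 entries. Those of miR-199a-1-3p and miR-199b-3p were equal in 30 of 30 libraries, and that of miR-199a-2-3p differed from them in 9 libraries, by at most 4.57 RPMMM. The 3 entries are therefore 1 measurement, and it cannot be told from these values which of the 3 genes was transcribed. Under the name miR-199a-1-3p the Crypt libraries gave 308, 151, 128 and 176 RPMMM, the Villus libraries 116, 51.0, 401 and 129 RPMMM, and the Cd24-Low libraries 41.3, 75.2, 42.4 and 25.2 RPMMM. The other 18 sorted libraries lay between 0 and 6.64 RPMMM, with 9 of them at 0, including all 4 germ-free libraries. The 4 Negative libraries all listed it, at 2.03 to 4.72 RPMMM, against 1 of 4 Low chow libraries, at 2.1 RPMMM. The 5p strand of miR-199a was listed in 5 of 8 dissected and 2 of 22 sorted libraries, at 6.46 RPMMM or less, and miR-199b-5p in 1 Cd24-Low library at 0.66 RPMMM.

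miR-214-3p, cut from the same transcript as miR-199a-2, was lower, and it too was seen in the dissected and Cd24-Low libraries. It stood at 14.9, 9.88, 15.8 and 21.5 RPMMM in Crypt, at 7.82, 3.21, 21.7 and 7.37 RPMMM in Villus and at 0.79, 1.27, 1.05 and 0.71 RPMMM in Cd24-Low. All other sorted libraries listed it at 0. miR-214-5p, in lower amounts still, was above 0 in 2 dissected libraries and 1 Cd24-Low library, at 4.97 RPMMM or less.

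miR-125b-5p gave 15.5, 10.2, 4.93 and 7.86 RPMMM in Crypt and 2.1, 2.72, 8.46 and 3.27 RPMMM in Villus under the name of the first gene. It was at 0.63 to 1.24 RPMMM in Cd24-Low and above 0 in 2 of the other 18 sorted libraries, at 2.54 RPMMM or less. The entry of the second gene was equal to it in 26 of 30 libraries. The passenger strands, which can tell the genes apart, differed in where they were seen. miR-125b-1-3p was listed in 7 of 8 dissected libraries, up to 38.1 RPMMM, in 2 of 4 Cd24-Low libraries and in 0 of the other 18. miR-125b-2-3p was listed in 3 of 8 dissected libraries, up to 6.8 RPMMM, in 3 of 4 Cd24-Low libraries, up to 1.12 RPMMM, and also in 7 of these 18, at 3.66, 4.58 and 8.03 RPMMM in Low chow, at 4.92, 2.73 and 3.68 RPMMM in conventionalized Low, and at 2.71 RPMMM in germ-free Low. Its values lie near the limit of what the table lists, and the difference between the genes was not tested.

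The members did not keep a fixed ratio to each other. miR-145-5p was 0.311% to 0.773% of miR-143-3p in Crypt and 0.341% to 1.13% in Villus. In Cd24-Low it was 13.7% to 14.8%, higher than in every dissected library. miR-199a-3p showed the same pattern, with 0.729% to 1.22% in Crypt, 0.78% to 1.24% in Villus and 18.2% to 21.0% in Cd24-Low. It was 1.85% to 4.02% in Negative cells. In conventionalized Low cells miR-199a-3p was at most 2.65%, and miR-145-5p at most 0.346%, of miR-143-3p. The mean of miR-143-3p was thus 88.0 times as high in Crypt as in Cd24-Low, while the means of miR-145-5p and miR-199a-3p were 3.04 and 4.14 times as high. miR-145-3p, miR-214-3p and miR-125b-5p were at higher shares in Cd24-Low too, with medians of 1.42%, 0.449% and 0.398% against 0.0646%, 0.0744% and 0.0428% in Crypt. The shares of miR-145-5p and miR-199a-3p stayed within those narrow ranges in Cd24-Low although miR-143-3p spanned 123 to 413 RPMMM. These ratios were noticed in the values and are given with no test. The labels name no lane for the Cd24-Low libraries, and the part of library preparation in the ratios was not tested.

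**Figure D2:**
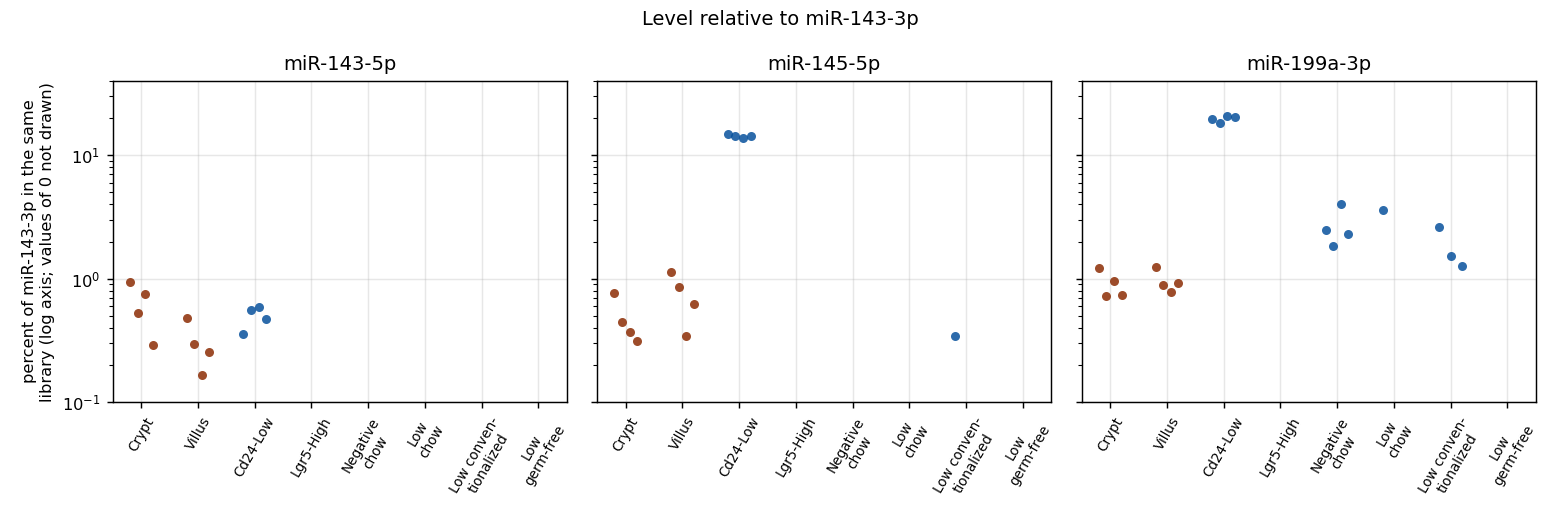
Level of miR-143-5p, miR-145-5p and miR-199a-3p as a percent of miR-143-3p in the same library, on a log axis, dissected tissue in brown and sorted cells in blue, with values of 0 not drawn. miR-145-5p and miR-199a-3p stood at 13.7% to 21.0% in Cd24-Low and at or under 1.24% in Crypt and Villus, while miR-143-5p was under 1% in all 3 groups.

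Dissected crypt was compared with Low cells of chow-fed mice to set tissue that can hold connective tissue beside sorted cells. miR-143-3p was 8.38 higher in Crypt on the log2(RPMMM + 1) scale (SE 0.25, limma adjusted p = 1.31e-09), and its mean was 346 times as high. Without Low chow replicate 3, whose diet is in doubt, the difference was 8.37 (adjusted p = 3.65e-09). miR-143-5p and miR-145-5p were listed at 0 in all 4 Low chow libraries, against 70.1 to 238 and 49.6 to 196 RPMMM in Crypt. miR-199a-3p was 7.09 higher (SE 0.55, limma adjusted p = 1.46e-06). All 6 entries tested were called higher in Crypt. Of all 251 features 39% were called higher in Crypt, and 68.1% were called in either direction, with a median difference of 0.24. The groups of all 6 entries did not overlap, as was so for 61% of all features. Only miR-143-3p had a mean of 50 RPMMM in both groups. The other 5 entries entered the test through Crypt alone, so their count and their p-values add nothing to their values. For miR-143-3p the two-sided exact permutation test over libraries gave p = 0.0286, the smallest that 70 relabelings allow. It was 0.0536 after adjustment over the 15 such tests of members, which hold miR-199a-3p under more than 1 name. The other 5 entries gave the same p, which their entry through Crypt alone made likely in advance.

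The column names carry a lane number but no run, so libraries with the same number need not have been sequenced together. All Low chow libraries have lane number 1 and all Crypt libraries lane number 4, so lane and group cannot be told apart in that comparison. Under lane number 4, 2 germ-free Low libraries had 30.02 and 74.8 RPMMM of miR-143-3p and 2 Negative libraries 118 and 141 RPMMM, and the 8 dissected libraries 5700 to 51364 RPMMM. The part of the sequencing run in the result was not tested. Some leukocyte microRNAs were higher in Crypt as well. Of 8 listed entries 3 were tested and called higher, of which miR-150-5p (351 against 0 RPMMM) and miR-155-5p (1106 against 21.4) entered through Crypt alone and miR-146a-5p (2357 against 1073) had overlapping groups. The 8 entries of a list with miR-142, miR-146a, miR-150, miR-155 and miR-223 summed to 0.222% to 0.524% of a Crypt library, 0.107% to 0.163% of a Villus library and 0.042% to 0.199% of a Low chow library. Their part in the result was not tested.

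Crypt libraries held a smaller share of epithelial microRNAs than any sort. The 20 entries of miR-192, miR-194, miR-215, miR-375 and the miR-200 family summed to 13.1% to 18.0% of a Crypt library and 34.2% to 50.3% of a Villus library. They took 72.0% to 74.2% in Negative, 49.5% to 62.8% in Cd24-Low and 23.8% to 41.2% in Low chow. Other microRNAs often named for connective tissue and vessels were on overlapping sums in Crypt and Low chow, with 3 called higher and 1 lower in Crypt of 5 tested. The 25 entries of that list (miR-100, miR-99a, miR-126, miR-10b, miR-195, miR-497, miR-140, miR-152, miR-218, miR-29 and miR-22) summed to 0.267% to 0.342% in Crypt and to 0.152% to 0.312% in Low chow. In Villus they summed to 0.392% to 0.484%, above every library of Low chow, Cd24-Low (0.221% to 0.344%), germ-free Low (0.212% to 0.286%) and Lgr5-High (0.162% to 0.223%), and within the range of Negative (0.318% to 0.509%). Much of these sums was miR-22-3p, with means of 1421 RPMMM in Crypt, 2980 in Villus, 3272 in Negative and 876 in Low chow. The whole sums were 2672 to 3420 RPMMM in Crypt, 3919 to 4841 in Villus, 3179 to 5095 in Negative and 1519 to 3119 in Low chow. Comparisons of the sums therefore follow 1 or a few entries, not the list as a whole. Of single entries, miR-10b-5p was lower in Crypt (403 ± 66.2 RPMMM, SD, n = 4) than in Low chow (1052 ± 497, n = 4), with a limma adjusted p of 0.0114. miR-152-3p was higher in Crypt (469 ± 107 against 60.2 ± 36.9 RPMMM, n = 4 each, limma adjusted p = 0.000132). miR-100-5p, which shares a transcript with miR-125b-1, was listed at 11.6 to 29.9 RPMMM in Crypt, 8.24 to 55.5 in Villus, 2.2 to 6.6 in Cd24-Low and at 0 in every other library, as the 3p strand of miR-125b-1 also was.

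Crypt and villus were compared as neighbouring parts of the same mucosa, and no guide strand was called between them. The difference of Crypt from Villus was 0.53 for miR-143-3p (SE 0.58, limma adjusted p = 0.496), -0.06 for miR-145-5p (SE 0.48, adjusted p = 0.933) and 0.44 for miR-199a-3p (SE 0.55, adjusted p = 0.566), all on the log2(RPMMM + 1) scale. The ranges of Crypt and Villus overlapped for each of these strands. The passenger strand miR-143-5p was called, 1.54 higher in Crypt (SE 0.51, limma adjusted p = 0.0303), although its groups overlapped and the exact permutation test gave p = 0.0571. It entered the test through Crypt alone. It was the 1 entry called of 6 tested, beside 46.9% of all 239 features called in either direction and 36.4% called higher in Crypt, with a median difference of 0.39 over all of them and 0.44 over the members. The call was lost with median-of-ratios scaling (adjusted p = 0.0825) and with quantile normalization (adjusted p = 0.0767), and also without Crypt replicate 1 or 2 or without Villus replicate 1, 2 or 4.

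Villus replicate 3 stood apart in these members. It had 51364 RPMMM of miR-143-3p against 5700 to 14023 in the other 3, and was also the highest Villus library for miR-143-5p, miR-145-5p, miR-199a-3p, miR-214-3p and miR-125b-5p. miR-1a, the microRNA of heart and striated muscle, which is also found in smooth muscle, reached 560 RPMMM there, against a Villus mean of 194 and a lowest Villus value of 25.4. Without that library miR-143-3p was called higher in Crypt, by 1.16 (limma adjusted p = 0.0178). The part of muscle in that library was not tested.

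Low and Negative cells of the same 4 chow-fed mice were compared because both come from sorted crypts. miR-143-3p was 1.87, 1.9, 2.05 and 2.2 times as high in the Negative as in the Low cells of a mouse, and the groups did not overlap. The difference of Low from Negative was -0.99 on the log2(RPMMM + 1) scale (SE 0.23, limma adjusted p = 0.00485), and -0.99 with the mouse as a block (adjusted p = 0.0169). The exact permutation test gave p = 0.0286. No other member was tested. Of all 221 features, 16.7% were called lower in Low cells, 63.8% were called in either direction, and 62% had groups that did not overlap. The median of all features was 0.84 higher in Low cells, so miR-143-3p moved against the bulk of the table. Median-of-ratios scaling, which removes that shift, gave -1.90, and the split of calls went from 104 higher and 37 lower to 72 and 63. Without the Low or the Negative library of mouse 3, whose diet is in doubt, the difference was -0.97 (limma adjusted p = 0.0058) or -0.997 (adjusted p = 0.017). The call was lost when the spread was estimated over all 8 groups (adjusted p = 0.126). Low libraries have lane number 1 and Negative libraries 4 or 5, so lane and sort gate cannot be told apart here.

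Between the other sorts, miR-143-3p was 6.22 lower in Lgr5-High than in Cd24-Low cells on the log2(RPMMM + 1) scale (SE 0.87, limma adjusted p = 0.00162), with all 4 Cd24-Low libraries above both Lgr5-High libraries, as 60.2% of the features had groups that did not overlap. It was the 1 member tested, beside 22.5% of 236 features called lower in Lgr5-High and 39.4% in either direction, and it entered the test through Cd24-Low alone. The exact permutation test gave p = 0.133, and 2 against 4 libraries cannot go below 0.0667. The size of the difference rests on each Lgr5-High library, with -7.76 without replicate 1 and -4.67 without replicate 2. Of the other members, miR-145-5p was listed at 0 and miR-199a-3p at 0 and 3.54 RPMMM in the 2 Lgr5-High libraries.

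**Figure D3:**
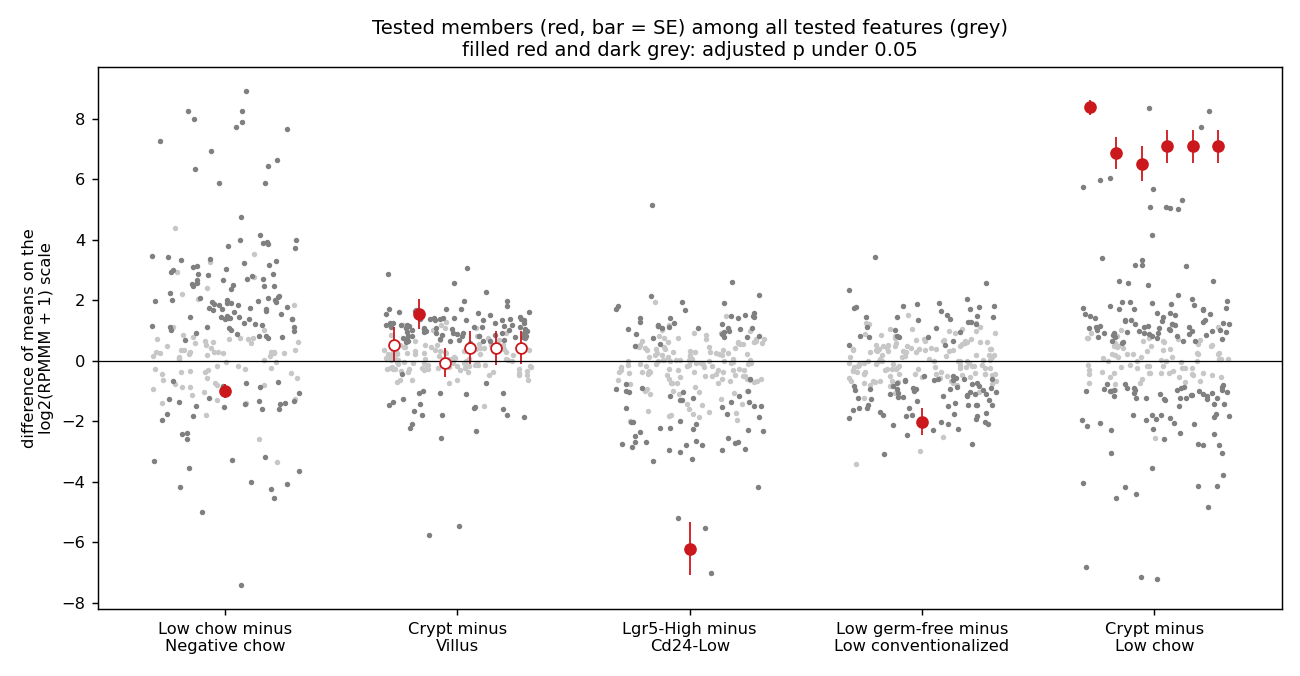
Difference of group means on the log2(RPMMM + 1) scale for all tested features (grey) and the tested members (red, bar for the SE) in 5 comparisons, filled red and dark grey at an adjusted p under 0.05. The members lay at 6.51 to 8.38 in Crypt minus Low chow, where 5 of the 6 entered through Crypt alone, and from -0.06 to 1.54 in Crypt minus Villus.

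Within Low cells, mice without microbes were set against colonized mice to ask what a microbiota changes in this sort. miR-143-3p was lower in germ-free cells, at 60.5 ± 22.3 RPMMM against 264 ± 147 (SD, n = 4 each), and the highest germ-free library, 79.1, lay below the lowest conventionalized library, 138. Germ-free minus conventionalized came to -2.01 in log2(RPMMM + 1) (SE 0.46, limma adjusted p = 0.00703; exact permutation p = 0.0286). Of all 252 features 28.6% were called lower in germ-free cells, 42.5% were called in either direction and 45.6% had groups that did not overlap, so a call was common in that comparison. The median of all features was -0.18. Median-of-ratios scaling left miR-143-3p at -1.86 (adjusted p = 0.0105) and changed the split of calls from 35 higher and 72 lower to 55 and 64. Leaving out any 1 library kept the call, with differences from -2.26 to -1.71. No other member was tested, and miR-199a-3p was listed at 3.65, 6.64, 0 and 4.4 RPMMM in conventionalized cells and at 0 in all germ-free cells.

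The libraries of that comparison carried several lane numbers, and whether equal numbers mean a shared run is not in the labels. Under lane number 1, the only number with both groups, the single conventionalized library had 141 RPMMM of miR-143-3p and the single germ-free library 58.2. The 4 Low chow libraries, also numbered 1, had 50.01 to 75.2, within the germ-free range and below every conventionalized library. The highest values, 430 and 345 RPMMM, belonged to conventionalized libraries numbered 5 and 3, as no germ-free library was. The other conventionalized library numbered 5 had 138 RPMMM, the lowest of its group. The part of lane or run in the difference was not tested.

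Of the connective tissue and vessel list, 8 entries were tested between germ-free and conventionalized cells, 2 were called lower in germ-free cells and 0 higher by limma, a share near the 28.6% of all features called lower. At an unadjusted p under 0.05, 2 were lower and 0 higher. These were miR-29a-3p (149 ± 20.3 against 447 ± 102 RPMMM, limma adjusted p = 0.00115, n = 4 each), which is known to act on collagen mRNAs, and miR-152-3p (31.2 ± 19.8 against 110 ± 27.5 RPMMM, adjusted p = 0.0139). The median of the 8 was -0.64. miR-10b-5p stood at 334 ± 58.7 and 347 ± 92.6 RPMMM (adjusted p = 0.948).

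The mRNA of Low cells from the same mice gives a second view of stromal cells in this sort, in the authors' normalized counts. Epithelial genes were abundant, with Epcam, an adhesion protein of epithelia, at 14073 to 35765 in the 12 mice. Genes of fibroblasts, smooth muscle and endothelium were scarce: the 34 listed genes summed to 0.00557% to 0.0273% of a library. The lists were uneven. The most abundant were Vim, with a mean of 639 over 16 libraries, Esam (379), Pecam1 (119) and Egfl7 (110), the last 3 of endothelium, followed by the matrix genes Fn1 (54.1) and Col6a1 (46.7). Several defining markers of muscle and fibroblasts lay near 0, with means over 16 libraries, which include 4 of mice on a high fat diet, of 3.32 for Acta2 (smooth muscle actin), 1.19 for Cnn1 (calponin), 2.32 for Lum (lumican), 5.68 for Dcn (decorin) and 0.0527 for Twist2, a fibroblast transcription factor. Means under 10 were found for 8 of the 14 fibroblast genes and 4 of the 12 smooth muscle and pericyte genes. Others of the muscle and pericyte list were higher, among them Pdgfrb (39.8), Synpo2 (38.2), Rgs5 (25.5), Myocd (25.3), Myl9 (20.2), Des (17.2) and Myh11 (14.1). Carmn, the precursor transcript of miR-143 and miR-145, had a mean of 1.57 and was at 0 in 7 libraries, so it was not tested.

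In that mRNA, no stromal gene was called lower in germ-free mice. Of the 34 genes, 23 were tested, 1 was called higher in germ-free cells and 0 lower by limma, and 7 were higher and 1 lower at an unadjusted p under 0.05. Of all 20214 genes 1.95% were called higher, 0.292% lower and 2.24% in either direction, and 20.1% had an unadjusted p under 0.05. The median difference over the 23 was 1.40, against 0.11 over all genes. 18 of the 23 were positive. The called gene was Pecam1, an endothelial adhesion protein, at 242.8, 178, 407 and 370 normalized counts in germ-free and 53.5, 60.4, 151 and 26.5 in conventionalized cells (2.22 on the log2(normalized count + 1) scale, SE 0.50, limma adjusted p = 0.0399). That call was lost on leaving out any of 6 of the 8 libraries, the exceptions being conventionalized replicate 3 and germ-free replicate 2, with adjusted p up to 0.112. Dnm3os, the host of miR-199a-2 and miR-214, was at 83.2, 40.4, 89.2 and 34.9 in germ-free and at 16.2, 11.4, 33.7 and 2.78 in conventionalized cells, groups that did not overlap, beside 12.5% of all genes that did not. Its difference of 2.16 did not pass (SE 0.74, limma adjusted p = 0.159). Vim, a filament protein of mesenchymal cells, was 1.53 higher with an adjusted p of 0.0763, and Myl9, a myosin light chain of smooth muscle, 2.97 lower with an adjusted p of 0.207.

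Set side by side by mouse, miR-143-3p was lower in germ-free than in conventionalized mice, while the summed stromal mRNA, much of it Vim, was higher in mean. The summed stromal genes were 2396 to 3004 normalized counts in the 4 germ-free mice, with miR-143-3p at 30.02 to 79.1 RPMMM. They were 897 to 1980 in the 4 conventionalized mice, with miR-143-3p at 138 to 430 RPMMM. In the 4 chow mice the sums were 929, 1400, 2012 and 2912, a span of both groups, with miR-143-3p at 50.01, 58.5, 75.2 and 57.3 RPMMM in the same order. The conventionalized mouse with the most miR-143-3p, 430 RPMMM, had a stromal sum of 1260 and the least Dnm3os of its group, 2.78. Vim alone stood at 363 to 1737 in germ-free, 254 to 404 in conventionalized and 321 to 1855 in chow mice. Without Vim, a sum examined after the values were seen, the other genes came to 1267 to 2033 in germ-free and 643 to 1638 in conventionalized mice, so the groups overlapped. Since the mice fall into separate groups, no correlation was computed over them.

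**Figure D4:**
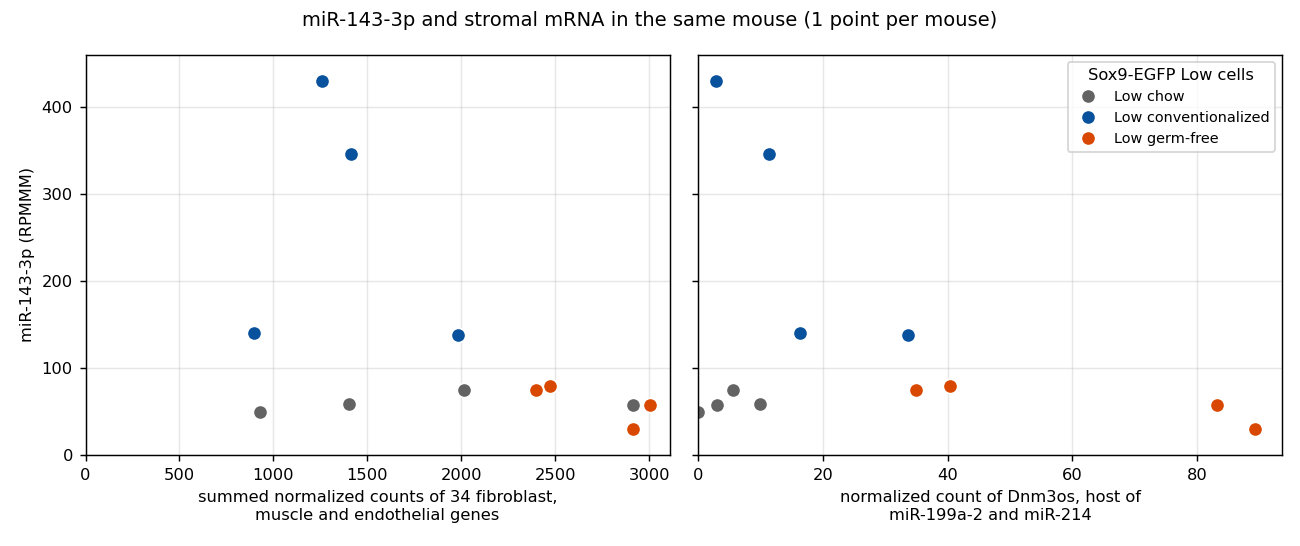
miR-143-3p in RPMMM against the summed normalized counts of 34 stromal genes (left) and the normalized count of Dnm3os (right) in Sox9-EGFP Low cells, with 1 point for each of 12 mice. The 4 germ-free mice have the highest Dnm3os, 34.9 to 89.2, with miR-143-3p at 79.1 RPMMM or less, and the 4 conventionalized mice have miR-143-3p at 138 to 430 RPMMM.

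The features most like the members over the 30 libraries were ranked by Spearman correlation with the mean log2(RPMMM + 1) of miR-143-3p, miR-145-5p, miR-199a-1-3p, miR-214-3p and miR-125b-1-5p, among 160 plain-named entries with a mean of at least 50 RPMMM. The 5 highest were miR-378-5p (0.881), miR-378-3p (0.826), miR-150-5p (0.8) and the 2 entries of miR-1a-3p (0.766 each). The 30 points include libraries of the same group, so these values describe the table only. miR-378-3p went from 38692 RPMMM in Crypt and 43525 in Villus to 24559 in Negative, 15461 in Cd24-Low and 6007 in germ-free Low, a much smaller range than that of miR-143-3p. miR-150-5p, a lymphocyte microRNA, was at 351 RPMMM in Crypt, 46.97 in Villus and 7.005 in Cd24-Low, and at 0 in every Sox9-EGFP library. miR-1a-2-3p, a muscle microRNA, was at 142 in Crypt, 194 in Villus, 40.6 in Cd24-Low, 33.7 in conventionalized Low, 28.8 in germ-free Low, 14.1 in chow Low, 5.99 in Negative and 3.03 in Lgr5-High. Unlike those of miR-143-3p, its conventionalized and germ-free ranges overlapped, at 22.8 to 47.1 and 24.8 to 36.1 RPMMM.

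In the authors' deposited table of APC mutant against control intestinal cells, 8 of the 16 members were listed, and that table gives 1 mean per group in a normalized unit other than RPMMM. APC is a tumour suppressor that restrains Wnt signalling. In the authors' deposited table miR-143-3p stood at 51.7 in APC mutant and 13.7 in control cells (log2 fold change 1.93, SE 1.54, adjusted p = 0.470). miR-199a-1-3p, miR-199a-2-3p and miR-199b-3p were at 11.6 in mutant cells and listed at 0 in control cells in the authors' deposited table, with an adjusted p of 0.342. miR-145, miR-214, miR-143-5p and the 5p strands of miR-199 have no entry there.

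Of these 8 members, 3 had an adjusted p under 0.05 in the authors' deposited table, beside 20.3% of its 1060 features, and all 3 belong to miR-125b. In that authors' deposited table miR-125b-1-5p was at 28.8 in mutant and 0 in control cells (adjusted p = 0.00116), while miR-125b-2-5p, the same mature strand, was at 30.4 and 10.9 (adjusted p = 0.344). The passenger strands went opposite ways in the authors' deposited table, with miR-125b-1-3p at 0 in mutant and 34.95 in control cells (adjusted p = 0.000749) and miR-125b-2-3p at 117 in mutant and 0 in control cells (adjusted p = 0.0249). The base mean of miR-125b-1-5p in the authors' deposited table, 602, exceeds both of its group means, as it does for 468 of the 1060 features. The values of single samples are not in that table, so the spread between the 2 samples of a group could not be seen.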

How the data were processed

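Per the labels' protocols, small RNA was prepared with TriLink CleanTag, and mRNA with SMARTer Ultra Low Input followed by Nextera XT. The deposited RPMMM is treated as RPM, because all its columns have the same total. For mRNA the authors deposited normalized counts, taken here as a signal whose scaling method the labels do not state. From the deposited APC comparison came the authors' log2 fold changes, their p-values and q-values, and group means and base means (signal and score units). Cell Ranger, STAR, Salmon, DESeq2 and mm10 are named in the submitters' processing notes, with no roles. Totals of reads are not in the small RNA table. Within a library 25% to 85% of the 60 lowest values were whole multiples of 1 step (tolerance 0.006 RPMMM), too few to recover reads, so no count test was run.

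Features with a mean over the compared libraries of at least 50 RPMMM, or genes of at least 10 normalized counts, were tested on log2(value + 1) with limma 3.58.1 in R 4.3.3 (trend, only the 2 groups in a fit), with Benjamini-Hochberg adjustment over all of them and calls at 0.05. The fit was tested on simulated data with known changes. Exact permutation tests used scipy 1.17.1. Other tools were Python 3.11.15, numpy 2.4.6, pandas 2.3.3 and matplotlib 3.10.9. The mRNA libraries summed to 10688863 to 19124357, with 381 unnamed entries (0.0338% to 0.0804% of a library) left out.

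Among the small RNA columns, 4 match no sample and were not used. The column of the third Low chow mouse names a high fat diet and the labels chow, and the labels were followed. Low and Negative cells are paired by mouse, since the animal numbers in the labels are the same. The deviations of same-numbered Low and Negative libraries from their group means, in log2(RPMMM + 1), correlated at 0.147, 0.1, 0.202 and -0.202. Mice were matched between assays by animal number.

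The members, lists and tests were chosen with earlier results of these data known. Named were all members and, by rule, the 5 features most like them. Lists are the connective tissue, epithelial and leukocyte microRNAs and, in mRNA, genes of fibroblasts, smooth muscle, endothelium, leukocytes and epithelium. Of the mRNA lists, the 8 epithelial and 6 tested leukocyte genes had 0 calls between germ-free and conventionalized cells by limma, with 0 and 0 at an unadjusted p under 0.05. Alternatives were other pseudocounts, filters and scalings, a spread over all groups, a replicate block and leaving out each library. Single-cell samples entered no comparison. High fat diet samples were set against no group, but they entered the mRNA means over 16 libraries and the mRNA spread over all groups.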

Additional observations from a re-analysis of the deposited data

Results flagged for a closer look

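Groups of 4 libraries, 62 groups of values in all, were searched for a library whose gap to its nearest neighbour exceeds 0.829 of the group's range. Chance marks about 1 in 20 groups only where values are normally distributed. A group with 3 libraries at 0 passes that limit by construction, so such a mark says nothing beyond the values. miR-145-5p stood at 1.49 RPMMM in conventionalized replicate 2, the library with the most miR-143-3p of its group, and at 0 in the other 3. miR-199a-1-3p, miR-199a-2-3p and miR-199b-3p, which are 1 molecule, stood at 2.1 RPMMM in Low chow replicate 1 and at 0 in the other 3. Not every group with this pattern was marked: miR-125b-1-5p stood at 2.54 RPMMM in the same library and at 0 in the other 3. Col1a1, a collagen gene, stood at 176 normalized counts in 1 germ-free Low mRNA library against 3.24 to 26.8 in the others. Villus replicate 3 fell just short for miR-143-3p, with a gap of 0.818 of the range.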

How the results depend on the processing

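The direction of miR-143-3p held under every setting tried in each of the 5 small RNA comparisons. In Crypt against Villus its difference as reported, 0.53, was smaller than its SE, 0.58, so its sign there says little. Without a filter on low values 336 features (33%) were called between Low and Negative cells (5 of 7 members tested), 173 (16.3%) between Crypt and Villus, 186 (9.99%) between Lgr5-High and Cd24-Low (5 of 16 members) and 362 (31.5%) between Crypt and Low chow (11 of 15 members). With a mean of at least 10 RPMMM, 230, 189 and 289 features were called for Low against Negative, Crypt against Villus and Crypt against Low chow, 179 for germ-free against conventionalized cells, and for Lgr5-High against Cd24-Low 5 of 5 members, beside 27.9% of features. These 5 entries, 3 of them 1 molecule, entered through Cd24-Low alone, and under both lower filters many members are at 0 in a group, so their counts add nothing to the values. With the spread taken over all groups, 0 of 1 member tested was called between Low and Negative, beside 73.3% of features. That spread gave 1672 genes called in the mRNA of germ-free against conventionalized mice, where 453 were called with only those 2 groups. Median-of-ratios scaling and quantile normalization each left 0 of 6 members called between Crypt and Villus, beside 42.7% and 33.9% of features. The higher and lower calls of Crypt against Villus went from 87 and 25 to 42 and 60 with median-of-ratios scaling and to 45 and 36 with quantile normalization, and the median of all features from 0.39 to -0.07 and -0.01. Those of Low against Negative became 62 and 60, those of germ-free against conventionalized 43 and 54, and those of Lgr5-High against Cd24-Low 58 and 40 in place of 40 and 53 with quantile normalization.

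Leaving out 1 library gave 0 to 2 of 6 members called between Crypt and Villus, beside 37.2% to 48.3% of features. Between Lgr5-High and Cd24-Low, 66 to 113 features were called on leaving out a Cd24-Low library. In mRNA, 1 to 684 genes were called (1 when germ-free replicate 1 was left out, 684 when replicate 2 was) and 0 to 1 stromal genes and hosts. Without 1 Lgr5-High library, the lone other is assumed to vary like Cd24-Low, so calls from those fits are not given. The cause of these changes was not tested. With the replicate number as a block, 139, 104, 117, 97 and 178 features were called for Low against Negative, Crypt against Villus, Lgr5-High against Cd24-Low, germ-free against conventionalized and Crypt against Low chow, and 494 genes in mRNA, and the number of members called did not change. Of these comparisons, only Low against Negative has shared mice in the labels, which give no animal numbers for Crypt, Villus, Cd24-Low and Lgr5-High. In Crypt against Low chow, deviations from the group mean correlated best with those of the same number for each of the 4 numbers. Nothing in the labels pairs these libraries. A count test on recovered reads was not run. Members near the smallest listed value are limited by depth, which is unknown. In an alternative chosen after seeing the data, the germ-free minus conventionalized mean of the summed stromal mRNA was 583 without Vim and 1309 with it.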
